A study of Mus musculus with 24 samples.

Results

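Transcripts of proteasome subunits were followed in liver, cerebellum and brainstem of mice with an expanded CAG repeat in Atxn2 and of their wild type littermates. Members were all probe sets annotated to a single gene whose symbol begins with Psma, Psmb, Psmc, Psmd or Psme and a number, which gave 64 probe sets of 42 genes among 45037 tested probe sets, or 42 of 17097 named genes. Of the 42 genes, 28 had 1 probe set and 14 had several, and each gene is described by its brightest probe set unless another is named. Psmc6, Psmd10, Psme4 and Psme2b had no probe set of their own, and 2 probe sets shared by Psmd13 and Sirt3 were left out. The symbol rule also takes in Psmc3ip, a partner in meiotic recombination, and Psme3ip1, which binds Psme3. Neither is a proteasome subunit.

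The CAG42 mice were homozygous for a knock-in, labelled Atxn2 Knock-In, in which exon 1 of Atxn2 was exchanged for one with 42 CAG repeats, and the WT mice were littermates with 1 CAG at this place. The allele is driven by the endogenous promoter in all cells, its FRT-flanked neomycin cassette had been removed, and the line had been backcrossed to C57BL/6 for at least 8 generations. All mice were 18 months old, and the sources used here do not give their sex. RNA of 4 CAG42 and 4 WT mice was hybridized for each of the 3 tissues, 1 array per mouse and tissue, 24 arrays in all.

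The proteasome degrades proteins tagged with ubiquitin. Its 20S core is a stack of rings in which alpha subunits (Psma) gate the entry and beta subunits (Psmb) hold the cutting sites. The 19S particle binds the substrate, removes its ubiquitin and unfolds it with ATPases (Psmc) and further subunits (Psmd). Interferon-gamma induces replacement beta subunits, Psmb8, Psmb9 and Psmb10, which take the places of Psmb5, Psmb6 and Psmb7 in newly assembled cores, and this immunoproteasome favours peptides that fit MHC class I. It also induces Psme1 and Psme2, which form the ring-shaped activator PA28. Ataxin-2, the protein of Atxn2, binds RNA, and its expanded form aggregates in neurons.

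The genes fell into 14 of the 20S core, 16 of the 19S particle, 5 interferon-inducible genes and 7 others. The others are the assembly chaperones Psmd5 and Psmd9, the nuclear activator Psme3, the germ cell subunit Psma8, the thymus subunit Psmb11, and Psmc3ip and Psme3ip1. Promoter windows of 300 bases, which run over the annotated transcription start, were found in RefSeq (GRCm38.p6) for 35 of the 42 genes. The windows below are those of Psmb9 and Psme1, the interferon-inducible genes with a match in the motif search described next. Psmb5 is shown with them as a constitutive subunit whose window also held a match. The levels of Psmb8 and Psme2 separated the tissues too, but their windows held no match and are not shown. Capitals mark the letters matched by a search of both strands for GAAANNGAA (the core of interferon regulatory factor elements), TGACNNNGC (the core of antioxidant response elements) and CCAAT. In each of the 3 windows a single motif matched once, so no matches overlapped.
Psmb9 (chr17:34187281-34187580, minus strand; CCAAT on the reverse strand): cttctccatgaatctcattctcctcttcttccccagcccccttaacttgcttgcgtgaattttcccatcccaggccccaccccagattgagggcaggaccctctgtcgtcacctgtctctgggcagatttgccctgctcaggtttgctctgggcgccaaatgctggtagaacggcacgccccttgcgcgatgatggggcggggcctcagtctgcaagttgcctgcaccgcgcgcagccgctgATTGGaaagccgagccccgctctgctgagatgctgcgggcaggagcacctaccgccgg
Psme1 (chr14:55578244-55578543, plus strand; GAAANNGAA on the reverse strand): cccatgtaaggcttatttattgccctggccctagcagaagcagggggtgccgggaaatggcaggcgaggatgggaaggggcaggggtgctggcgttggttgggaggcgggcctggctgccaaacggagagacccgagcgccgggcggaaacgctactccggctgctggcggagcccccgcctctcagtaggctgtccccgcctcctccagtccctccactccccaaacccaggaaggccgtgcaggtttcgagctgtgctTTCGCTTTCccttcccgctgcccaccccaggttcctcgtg
Psmb5 (chr14:54617946-54618245, minus strand; TGACNNNGC): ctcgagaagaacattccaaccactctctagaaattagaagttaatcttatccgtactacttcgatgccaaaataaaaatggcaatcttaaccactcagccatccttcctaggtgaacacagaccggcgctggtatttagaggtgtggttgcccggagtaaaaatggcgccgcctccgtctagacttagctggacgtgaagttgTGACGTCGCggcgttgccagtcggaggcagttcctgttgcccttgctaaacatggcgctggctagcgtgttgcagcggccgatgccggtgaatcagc

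GAAANNGAA was found in 1 of 6 windows of the interferon-inducible genes and in 8.56% of all 32851 windows of this length. CCAAT was found in 1 of 6 and in 37.4% of all windows, and TGACNNNGC in 0 of 6 and in 12.4%. Over the 39 windows of all member genes GAAANNGAA was found in 6, CCAAT in 15 and TGACNNNGC in 4. The windows of Psmb8, Psmb10 and Psme2 held none of the 3 motifs. A match is a description of the letters only. Psmb8 and Psmb9 lie on chromosome 17 in the MHC region, as do the peptide transporter genes Tap1 and Tap2.

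Tissue markers went with the labels. The mean log2 level of 7 hepatocyte markers was 12.85 to 12.96 in liver and at most 3.77 elsewhere, and that of 4 brainstem neuron markers was at least 7.39 in brainstem and at most 3.89 elsewhere. That of 5 cerebellar neuron markers was at least 11.22 in cerebellum, 7.41 to 8.36 in brainstem and at most 4.07 in liver. These markers were thus well above the liver level in brainstem too, and the reason was not tested. The 5 probe sets of Atxn2 were not called between genotypes in any tissue (lowest adjusted p = 0.325), and a knock-in that keeps the transcript cannot be checked by its level. One WT liver array, replicate 3, stood below its group in the interferon-inducible genes. The lowest correlation within a group was 0.954 in WT liver and at least 0.986 in the other 5 groups, and it was not traced to a single array. WT liver replicate 1 stood apart in the 19S genes, with a mean of 9.38, against 9.15 to 9.24 in the other WT livers. Liver results are also given without replicate 3, which was picked for its low values in the interferon-inducible genes. The median of all probe sets on an array was 4.13 to 4.25 in liver and 4.42 to 4.62 in the brain regions. Centring each array on its median moves the median of all genes by 0.32 (liver minus cerebellum), 0.41 (liver minus brainstem) and 0.09 (cerebellum minus brainstem), and quantile normalization moves it by 0.24, 0.41 and 0.09. The 3′ minus 5′ difference of the Gapdh control probe sets, a sign of RNA integrity, was 0.12 to 0.31 in liver and −0.16 to 0.08 in the brain regions. The sources used here do not say whether the tissues were normalized together, so tissue differences are given as deposited and under both scalings.

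Between liver and the brain regions of WT mice, the interferon-inducible genes and the 19S genes differed in opposite directions at the median. All 5 were called higher in liver than in cerebellum, by a median of 2.15 on the log2 scale, while 13 of 16 genes of the 19S particle were called lower and 0 higher, by a median of −0.52. The 14 genes of the 20S core lay between, with 2 called higher, 5 lower and a median of −0.04. A call here is an adjusted p under 0.05 (limma, Benjamini-Hochberg over all probe sets), and most transcripts differ between these tissues: in liver minus cerebellum 81.8% of all probe sets and 42 of 64 member probe sets were called. Per gene, 10 of the 42 were called higher, against 38.3% of all genes, and 20 lower, against 46.5%. The median difference over all genes was −0.13.

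Psmb9, the immunosubunit that replaces Psmb6, gave 7.82, 8.10, 6.47 and 8.47 in the 4 WT livers, 4.22, 4.18, 4.22 and 4.55 in WT cerebella and 5.17, 6.23, 4.89 and 5.35 in WT brainstems (RMA values, log2). The liver arrays lay above every brain array, and liver replicate 3 was the lowest liver. The difference was 3.42 from cerebellum (95% CI 2.79 to 4.05, adjusted p = 3.03e-10) and 2.30 from brainstem (4.94-fold, CI 1.68 to 2.93, adjusted p = 2.53e-07). The WT cerebella averaged 4.29, below the median of all values of 4.37, where a level cannot be told from background, so no fold is given against them.

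Psmb8, which takes the chymotrypsin-like site of Psmb5, gave 8.18, 8.58, 7.05 and 8.97 in WT livers, 5.54, 5.65, 5.53 and 5.70 in WT cerebella and 6.33, 6.96, 6.29 and 6.49 in WT brainstems. Its ranges did not overlap between the 3 tissues. Liver stood 2.59 above cerebellum (6.02-fold, adjusted p = 4.07e-09) and 1.68 above brainstem (3.20-fold, adjusted p = 4.02e-06).

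The PA28 genes were measured with less spread. Psme1 gave 10.20, 10.46, 10.10 and 10.59 in WT livers, 8.15, 8.24, 8.14 and 8.20 in WT cerebella and 9.30, 9.52, 9.33 and 9.23 in WT brainstems. Psme2 gave 9.88, 10.05, 9.58 and 10.03 in WT livers, 7.89, 7.96, 8.0 and 8.02 in WT cerebella and 8.49, 8.90, 8.88 and 8.72 in WT brainstems. For both genes liver was highest, brainstem in the middle and cerebellum lowest, with no overlap. Liver exceeded cerebellum by 2.15 for Psme1 (4.44-fold, CI 1.96 to 2.34, adjusted p = 3.57e-16) and by 1.91 for Psme2 (3.77-fold, CI 1.70 to 2.13, adjusted p = 3.02e-14). Over brainstem the differences were 0.99 for Psme1 (1.98-fold) and 1.14 for Psme2 (2.20-fold).

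Psmb10, the immunosubunit that replaces Psmb7, departed from this order. It gave 9.42, 9.41, 8.59 and 9.57 in WT livers, 7.66, 7.73, 7.66 and 7.69 in WT cerebella and 9.16, 9.43, 9.37 and 9.24 in WT brainstems, so that liver and brainstem overlapped while cerebellum stood alone. Liver minus cerebellum was 1.56 (2.96-fold, adjusted p = 1.05e-09) and cerebellum minus brainstem −1.61 (3.06-fold higher in brainstem, adjusted p = 3.22e-09). Liver minus brainstem was −0.05 as deposited (CI −0.36 to 0.26, adjusted p = 0.761), but 0.36 after centring (adjusted p = 0.0372), 0.68 after quantile normalization (adjusted p = 2.20e-05) and 0.17 without WT liver replicate 3, so its direction is not settled.

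**Figure D1:**
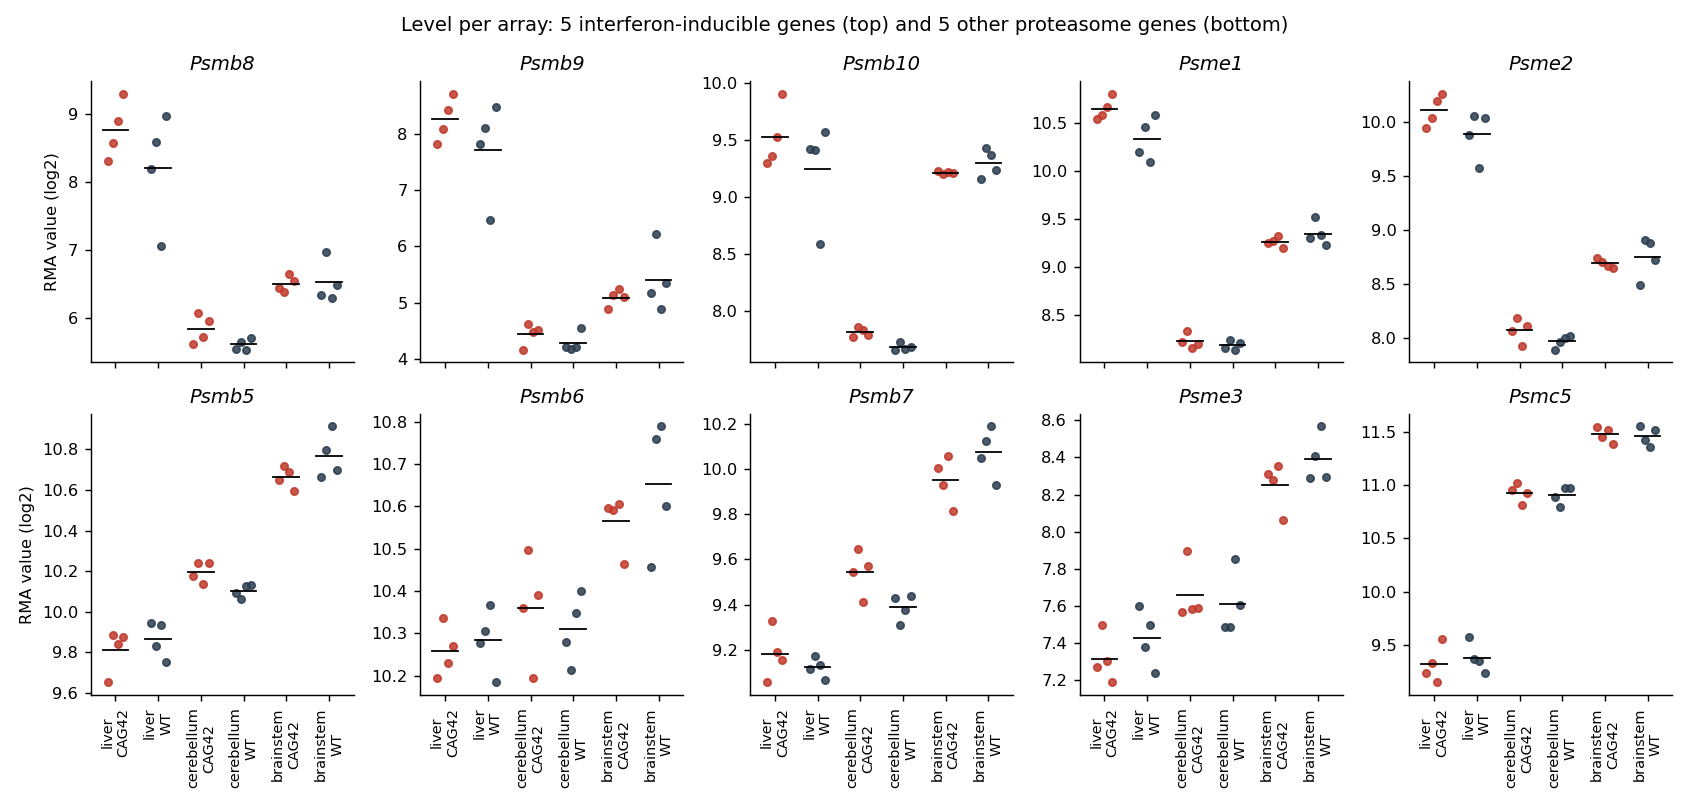
RMA value (log2) of each array for the 5 interferon-inducible genes (top row) and 5 other proteasome genes (bottom row), by tissue and genotype. Points are the 4 mice of a group, CAG42 in red and WT in dark blue, and bars are group means. The liver arrays lie above all brain arrays for Psmb8, Psmb9, Psme1 and Psme2 and below all of them for Psmc5, and WT liver replicate 3 is the lowest point of its group in the top row.

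In the tissue comparisons without WT liver replicate 3, the 5 genes kept their calls, 5 of 5 higher than in cerebellum (median 2.23) and 4 of 5 higher than in brainstem (median 1.24). This array was the lowest WT liver in all 5 genes, so leaving it out had to raise these differences. In CAG42 mice the same counts were 5 of 5 (median 2.43) and 4 of 5 (median 1.41), and Psmb9 stood 3.81 above cerebellum and 3.17 above brainstem.

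The constitutive counterparts did not share this pattern. Psmb5, which carries the chymotrypsin-like site, gave 9.95, 9.83, 9.93 and 9.75 in WT livers, 10.09, 10.06, 10.13 and 10.13 in WT cerebella and 10.66, 10.80, 10.91 and 10.70 in WT brainstems. Psmb6, which carries the caspase-like site, gave 10.28, 10.31, 10.37 and 10.18 in WT livers, 10.28, 10.21, 10.35 and 10.40 in WT cerebella and 10.46, 10.76, 10.79 and 10.60 in WT brainstems. Psmb7, which carries the trypsin-like site, gave 9.12, 9.17, 9.13 and 9.07 in WT livers, 9.43, 9.31, 9.38 and 9.44 in WT cerebella and 10.05, 10.13, 10.19 and 9.93 in WT brainstems. For all 3 the WT brainstems lay above every WT liver and cerebellum.

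Liver minus cerebellum was −0.24 for Psmb5 (adjusted p = 0.00487), −0.03 for Psmb6 (adjusted p = 0.769) and −0.27 for Psmb7 (adjusted p = 0.00354). After centring these became 0.08, 0.29 and 0.05 and after quantile normalization 0.05, 0.16 and 0.26, so none of these directions held under every scaling. Liver minus brainstem was −0.90 for Psmb5 (adjusted p = 6.40e-11), −0.37 for Psmb6 (adjusted p = 0.000279) and −0.95 for Psmb7 (adjusted p = 8.40e-11). Only that of Psmb6 turned with the scaling, to 0.04 and 0.02. Cerebellum was below brainstem by 0.66, 0.34 and 0.69 for Psmb5, Psmb6 and Psmb7, each called. Psme3, which forms the nuclear counterpart of PA28, gave 7.60, 7.38, 7.49 and 7.24 in WT livers, 7.49, 7.48, 7.85 and 7.60 in WT cerebella and 8.29, 8.41, 8.57 and 8.29 in WT brainstems. Its brainstem arrays lay above all others (cerebellum minus brainstem −0.78, adjusted p = 1.61e-06), and liver minus brainstem, −0.96 as deposited, became 0.10 after quantile normalization.

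Levels of different probe sets cannot be set against each other, but their difference can be followed from group to group. The level of each immunosubunit minus that of its counterpart was therefore taken on each array and expressed relative to the mean of WT cerebella. Psmb9 minus Psmb6 was 3.56, 3.82, 2.12 and 4.30 in WT livers, and −0.04, −0.01, −0.11 and 0.17 in WT cerebella, and 0.73, 1.48, 0.12 and 0.77 in WT brainstems. Psmb10 minus Psmb7 was 2.01, 1.94, 1.16 and 2.21 in WT livers, −0.06, 0.12, −0.01 and −0.05 in WT cerebella and 0.81, 1.01, 0.89 and 1.01 in WT brainstems. Psmb8 minus Psmb5 was 2.73, 3.24, 1.62 and 3.71 in WT livers, −0.05, 0.08, −0.10 and 0.07 in WT cerebella and 0.17, 0.66, −0.12 and 0.29 in WT brainstems. In all 3 pairs every liver array lay above every brain array. This difference within an array does not change when an array is centred.

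Liver exceeded cerebellum by 3.45, 1.83 and 2.83 and brainstem by 2.67, 0.90 and 2.58 for Psmb9, Psmb10 and Psmb8 minus their counterparts. Each of these 6 gave p = 0.0286, the smallest that 4 against 4 arrays allow in a two-sided exact permutation test, and 0.0368 after Benjamini-Hochberg correction over the 9 tissue comparisons. Cerebellum minus brainstem was −0.93 for Psmb10 minus Psmb7 (exact p = 0.0286, adjusted 0.0368), −0.77 for Psmb9 minus Psmb6 (exact p = 0.0571, adjusted 0.0642) and −0.25 for Psmb8 minus Psmb5 (exact p = 0.171). With the mean of all probe sets of each gene the last became 0.22 (adjusted p = 0.0322), so its direction depends on the probe sets taken. Between cerebellum and brainstem arrays of the same number, which deviate from their group means together, cerebellum was lower in 4 of 4 pairs for Psmb9 minus Psmb6 (−1.50 to −0.23), 4 of 4 for Psmb10 minus Psmb7 and 3 of 4 for Psmb8 minus Psmb5, and an exact test of 4 pairs cannot go below p = 0.125. The level of Psmb9 in WT cerebella, at the low end of the scale, is the base of its comparisons.

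**Figure D2:**
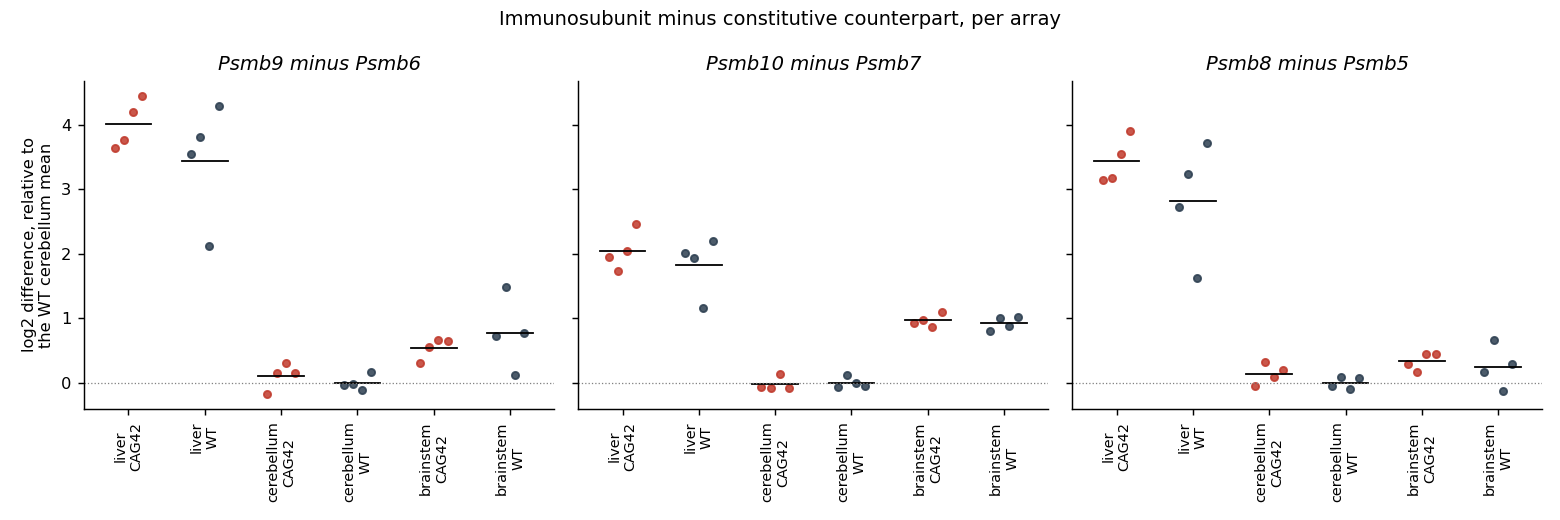
Log2 difference between each immunosubunit and its constitutive counterpart on each array, relative to the mean of WT cerebella (dotted line at 0), by tissue and genotype. Points are the 4 mice of a group, CAG42 in red and WT in dark blue, and bars are group means, which in WT liver are 3.45, 1.83 and 2.83 from left to right.

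Most genes of the 19S particle were lower in liver than in the brain regions as deposited. The largest difference by brightest probe sets was that of Psmc5, an ATPase of the base, with 9.57, 9.37, 9.35 and 9.23 in WT livers, 10.89, 10.79, 10.98 and 10.97 in WT cerebella and 11.55, 11.42, 11.36 and 11.52 in WT brainstems. The 3 tissues did not overlap, and liver minus cerebellum was −1.53 (2.88-fold higher in cerebellum, adjusted p = 1.07e-13) and liver minus brainstem −2.08 (4.23-fold higher in brainstem, adjusted p = 2.29e-16). Psmd14, the deubiquitinase of the lid, gave 9.38, 9.14, 9.33 and 9.30 in WT livers, 10.62, 10.60, 10.63 and 10.55 in WT cerebella and 10.93, 11.11, 11.00 and 10.93 in WT brainstems, again with no overlap. Its differences were −1.31 (adjusted p = 6.89e-14) from cerebellum and −1.70 (adjusted p = 3.93e-16) from brainstem. Psmd2, a scaffold of the base on which ubiquitin shuttles dock, gave 8.86, 8.56, 8.71 and 8.56 in WT livers, 9.71, 9.69, 9.77 and 9.68 in WT cerebella and 10.06, 9.94, 9.92 and 10.05 in WT brainstems, with differences of −1.04 and −1.32. A second probe set of Psmd2, at the low end of the scale, went the other way, by 0.42 (adjusted p = 0.000211) and 0.28 (adjusted p = 0.00793).

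All 5 measured ATPase genes, Psmc1 to Psmc5, were called lower in liver than in cerebellum, with Psmc1 at −0.78, Psmc3 at −0.61, Psmc4 at −0.53 and Psmc2 at −0.33. Of the 11 other genes of the particle 8 were called lower, among them the scaffold Psmd1 at −0.40 and the ubiquitin receptor Psmd4 at −0.55, and the lid gene Psmd12 was highest at 0.16 (adjusted p = 0.0761). After centring, the calls among the 16 genes of the particle were 2 higher and 9 lower (median −0.20), and after quantile normalization 4 higher and 6 lower (median −0.08). The calls among the 14 genes of the 20S core turned from 2 higher and 5 lower to 9 higher and 0 lower after centring (median 0.28) and to 6 and 0 after quantile normalization (median 0.16). As deposited the range of the core ran from −0.49 for Psma5, of the alpha ring, to 0.39 for Psmb2 and 0.35 for Psma1.

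Liver minus brainstem showed the same order of groups at lower values. The call was made for 80.8% of all probe sets and for 53 of the 64 members. Per gene, 7 of 42 were called higher, against 33% of all genes, and 29 lower, against 51.8%, with a median over all genes of −0.35. The interferon-inducible genes had 4 of 5 called higher (median 1.14), the 20S core 0 higher and 10 of 14 lower (median −0.44), and the 19S particle 16 of 16 lower (median −0.83, from −2.08 for Psmc5 to −0.16 for Psmd8). After centring, the core had 5 higher and 6 lower (median −0.03) and the particle 1 higher and 11 lower (median −0.42). After quantile normalization the core had 4 higher and 7 lower (median −0.17), the particle 3 higher and 9 lower (median −0.28), and the interferon-inducible genes had 5 of 5 higher under both scalings.

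Over all 42 genes, the share of calls that were higher in liver than in cerebellum was 33.33% as deposited, 63.33% after centring and 74.07% after quantile normalization, and 19.44%, 42.42% and 50% for liver minus brainstem. The split of calls in liver thus moved with the scaling. The order of the medians of the 3 groups of genes was the same after quantile normalization as in the deposited values. Centring shifts every gene of a comparison by the same amount, so it cannot change this order and does not test it.

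Cerebellum and brainstem differed in 47% of all probe sets and 44 of the 64 members. Per gene, 1 of 42 was called higher in cerebellum, against 14.1% of all genes, and 33 lower, against 36.3%. Called lower were 5 of 5 interferon-inducible genes (median −1.12), 13 of 14 genes of the 20S core (median −0.42, from −0.69 for Psmb7 to −0.14 for Psma4) and 12 of 16 of the 19S particle (median −0.39, from −0.71 for Psmd12 to −0.06 for Psmd11), against a median of −0.14 over all genes. After centring the counts were 5, 11 and 10 called lower and 0 higher, and after quantile normalization 5, 8 and 9 called lower. Among the interferon-inducible genes the cerebellum stood below the brainstem by −1.16 for Psme1 (adjusted p = 3.41e-10), −1.12 for Psmb9 (adjusted p = 0.00378), −0.91 for Psmb8 (adjusted p = 0.00647) and −0.78 for Psme2 (adjusted p = 1.25e-06). In CAG42 mice the value of Psmb9 was −0.64 (adjusted p = 0.0885), so this call was not made there. Second probe sets at the low end of the scale gave −0.01 for Psmb9 (adjusted p = 0.958) and 0.02 for Psmb8, neither of them called, while another of Psmb9 gave −0.86 (adjusted p = 0.00217).

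**Figure D3:**
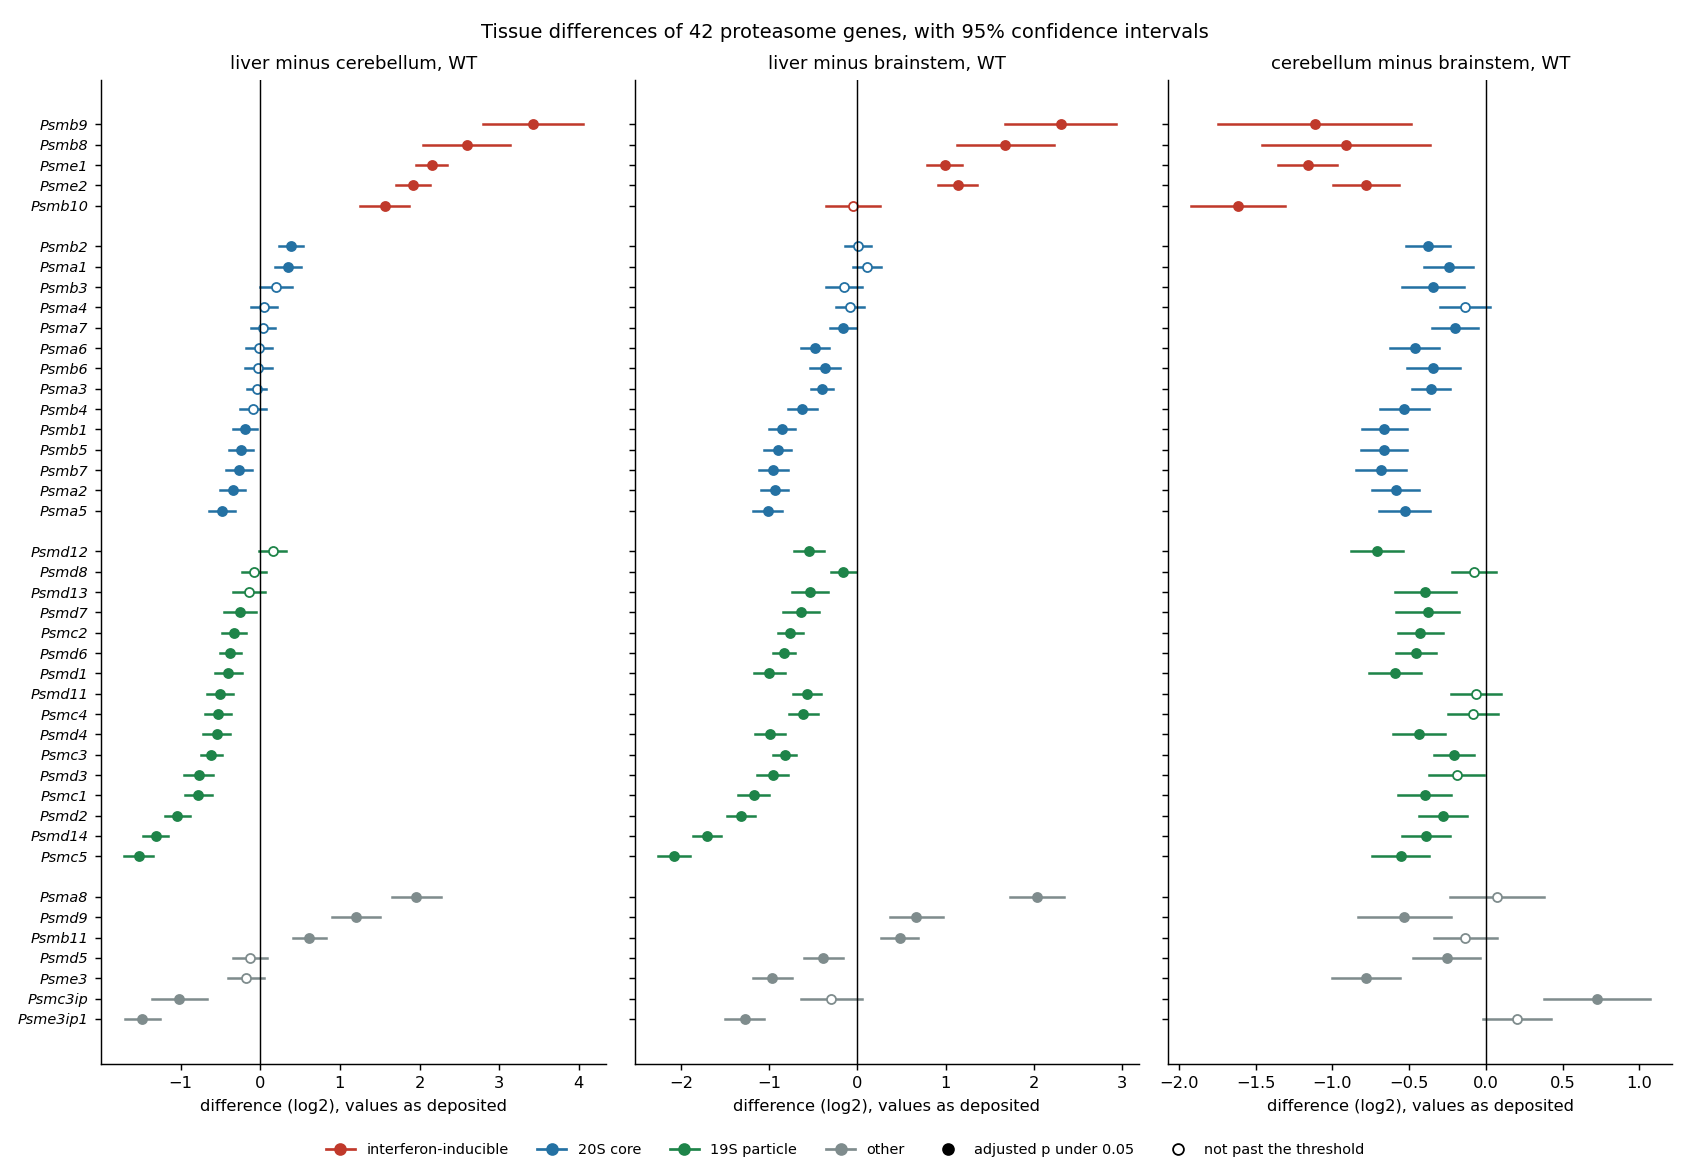
Tissue differences in WT mice for the 42 genes (log2, values as deposited), with liver minus cerebellum, liver minus brainstem and cerebellum minus brainstem from left to right, ordered within each group of genes by the left panel. Points are fitted differences, lines 95% confidence intervals, and filled points have an adjusted p under 0.05. In the left panel the 5 interferon-inducible genes (red) lie to the right of 0 and 15 of the 16 genes of the 19S particle (green) to the left, Psmd12 being the exception, and 5 of the 14 genes of the 20S core (blue) lie to the right, 12 when arrays are centred. In the middle panel Psmb10 is the red point to the left of 0, at −0.05.

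The remaining genes behaved one by one. Psma8, the alpha subunit of germ cells, gave 5.39, 4.97, 4.85 and 4.64 in WT livers, 2.99, 2.77, 3.38 and 2.89 in WT cerebella and 3.23, 2.89, 2.83 and 2.77 in WT brainstems. Its liver values stood 1.96 above cerebellum (adjusted p = 1.58e-11) and 2.03 above brainstem (adjusted p = 8.09e-12), from brain levels at the low end of the scale. Psmb11, the beta subunit of the thymus, gave at most 3.45 on any array and was the only member gene below the median of all values, 4.37, in all groups. Its liver minus cerebellum value was 0.61 (adjusted p = 6.10e-06), and at this level it cannot be told from background. Psmd9, an assembly chaperone of the base, gave 8.35, 8.19, 8.04 and 7.60 in WT livers, 6.66, 6.82, 6.98 and 6.93 in WT cerebella and 7.25, 7.44, 7.48 and 7.33 in WT brainstems, with liver above both (1.20 and 0.67, adjusted p = 7.34e-08 and 0.000225) although another of its probe sets gave −1.18 and −0.26.

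Psme3ip1 was low in liver, with 8.07, 7.82, 7.32 and 7.78 in WT livers, 9.24, 9.16, 9.31 and 9.20 in WT cerebella and 9.10, 8.89, 8.94 and 9.17 in WT brainstems. Its differences were −1.48 (liver minus cerebellum) and −1.28 (liver minus brainstem). Psmc3ip was the only member called higher in cerebellum than in brainstem, with 5.81, 5.90, 6.15 and 5.98 in WT cerebella and 5.08, 5.34, 5.52 and 5.02 in WT brainstems (0.72, adjusted p = 0.000934).

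Where a gene had several probe sets, they could disagree. Opposite signs with at least 1 call were found for 6 of the 14 such genes in liver minus cerebellum, 5 in liver minus brainstem and 7 in cerebellum minus brainstem. Psmd11, of the lid, gave −0.51 by its brightest probe set and 1.21 by another for liver minus cerebellum, and Psmd7, the partner of Psmd14, gave −0.26, −1.90 and 0.76 by its 3 probe sets. In the same comparison Psmc1 gave −0.78 and 0.15 and Psmc4 −0.53 and 0.20. For cerebellum minus brainstem Psmd4 gave −0.44, −0.67 and 0.49, and Psma1 −0.24 and 0.02. These genes are read here by the brightest probe set only. The direction was the same in CAG42 and WT mice for 39, 39 and 38 of the 42 genes in the 3 tissue comparisons, in the order above, and 29, 35 and 29 were called in the same direction in both.

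Genes that work with the proteasome were counted alongside. Of 13 measured interferon-gamma response genes, 13 were called higher in liver than in cerebellum (median 2.85), 11 higher and 1 lower than in brainstem (median 1.81), and 8 lower in cerebellum than in brainstem (median −1.05). The GTPase gene Iigp1 averaged 11.47 in WT livers and 4.38 in WT cerebella, and the transcription factor gene Irf1 8.36 and 5.51. Of 9 genes of MHC class I antigen processing, 7 were called higher and 1 lower in liver than in cerebellum, and 7 and 2 in liver against brainstem. H2-K1, a class I heavy chain, averaged 12.44 in WT livers, 8.86 in WT cerebella and 9.60 in WT brainstems. The lower one against cerebellum was Pdia3, a chaperone of peptide loading, whose probe set averaged 3.57 in WT livers, at the low end of the scale, and 5.84 in WT cerebella. The median over all genes was −0.13, −0.35 and −0.14 in the 3 comparisons. Of all genes, 38.3% were called higher and 46.5% lower in liver than in cerebellum, and 33% and 51.8% in liver against brainstem. In cerebellum against brainstem the shares were 14.1% and 36.3%.

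Shuttles and associated enzymes went the other way in liver, with 2 of 13 called higher and 9 lower than in cerebellum (median −1.31) and 12 lower than in brainstem (median −1.58). In cerebellum 6 were called lower than in brainstem, near the share of all genes given above. Ubqln2, which carries ubiquitinated proteins to the proteasome, averaged 7.01 in WT livers, 10.89 in WT cerebella and 11.04 in WT brainstems. The deubiquitinase gene Uchl5 averaged 7.81, 9.58 and 10.34 in the same order of tissues, and Zfand2a 6.26, 8.91 and 9.41. Of 5 assembly chaperones, 3 were called higher and 1 lower in liver than in cerebellum, with Psmg1 at 0.73 and Psmg2 at −0.76, 2 and 2 in liver against brainstem, and 3 lower in cerebellum than in brainstem, with the core maturation factor Pomp at −0.67. Among 6 genes that regulate proteasome transcription, Nfe2l1, which is known to raise subunit transcription when the proteasome is inhibited, averaged 7.51 in WT livers, 9.32 in WT cerebella and 10.25 in WT brainstems. Nfe2l2, which binds antioxidant response elements, averaged 8.90, 7.37 and 8.23. Of these 6 genes 4 were called higher and 1 lower in liver than in cerebellum, 1 and 3 in liver against brainstem, and 6 lower in cerebellum than in brainstem. For liver against brainstem, the counts of chaperones and of these regulators lay near the shares of all genes. Of the ubiquitin and E1 genes 1 was measured, Uba6, with 4.67 in WT livers and, at the low end of the scale, 2.78 in WT cerebella and 2.83 in WT brainstems.

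Several lists of immune cell markers moved with these differences. Of 7 Kupffer cell markers, all were called higher in liver than in either brain region (mean level 7.03 to 8.43 in liver and at most 3.50 in brain). Of 10 T and NK cell markers 8 were higher and 1 lower. Their mean level was 4.36 to 4.83 in liver, near the median of all values of 4.37, and at most 3.42 in brain, below it. All 8 microglia markers were called lower in cerebellum than in brainstem, with mean levels of 5.93 to 6.29 in cerebellum and 7.35 to 7.57 in brainstem. Of 6 markers common to leukocytes, 5 were called higher and 1 lower in liver than in cerebellum, and 4 lower in cerebellum than in brainstem, while against brainstem 3 were higher in liver and 1 lower. The microglia markers did not follow liver, with 4 called higher and 3 lower than in cerebellum and 0 higher and 4 lower than in brainstem (median −1.02). All these counts stand beside the shares of all genes called in the same comparisons, given above. In bulk tissue, more cells of a type and more RNA per cell cannot be told apart. The part of these cells in the proteasome values was not tested.

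Between genotypes, no proteasome gene was called in any tissue. The call was made for 0 of 64 members in cerebellum, where 0.0444% of all probe sets were called, for 0 in brainstem, where 0.0155% were, and for 0 in liver, where 0.147% were (limma). At an unadjusted p under 0.05 there were 0 members in cerebellum against 3.59% of all probe sets, 3 in brainstem (4.69%) against 4.17%, and 5 in liver (7.81%) against 8.61%, so the members stood near the background. The CAG42 arrays lay wholly above or below the WT arrays for 4 members in cerebellum, against 3.94% of all probe sets, for 2 in brainstem, against 3.7%, and for 1 in liver, against 2.76%.

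For the 30 genes of the 20S core and 19S particle, the largest difference between CAG42 and WT mice was 0.15 in cerebellum (Psmb7), 0.24 in brainstem (Psmd13) and −0.17 in liver (Psmd8), on the log2 scale. Their 95% confidence intervals reached from −0.21 to 0.32 in cerebellum, from −0.33 to 0.44 in brainstem and from −0.32 to 0.34 in liver over all 30 genes. The median difference over all genes was 0.00174, −0.00518 and 0.00928 in the 3 tissues.

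**Figure D4:**
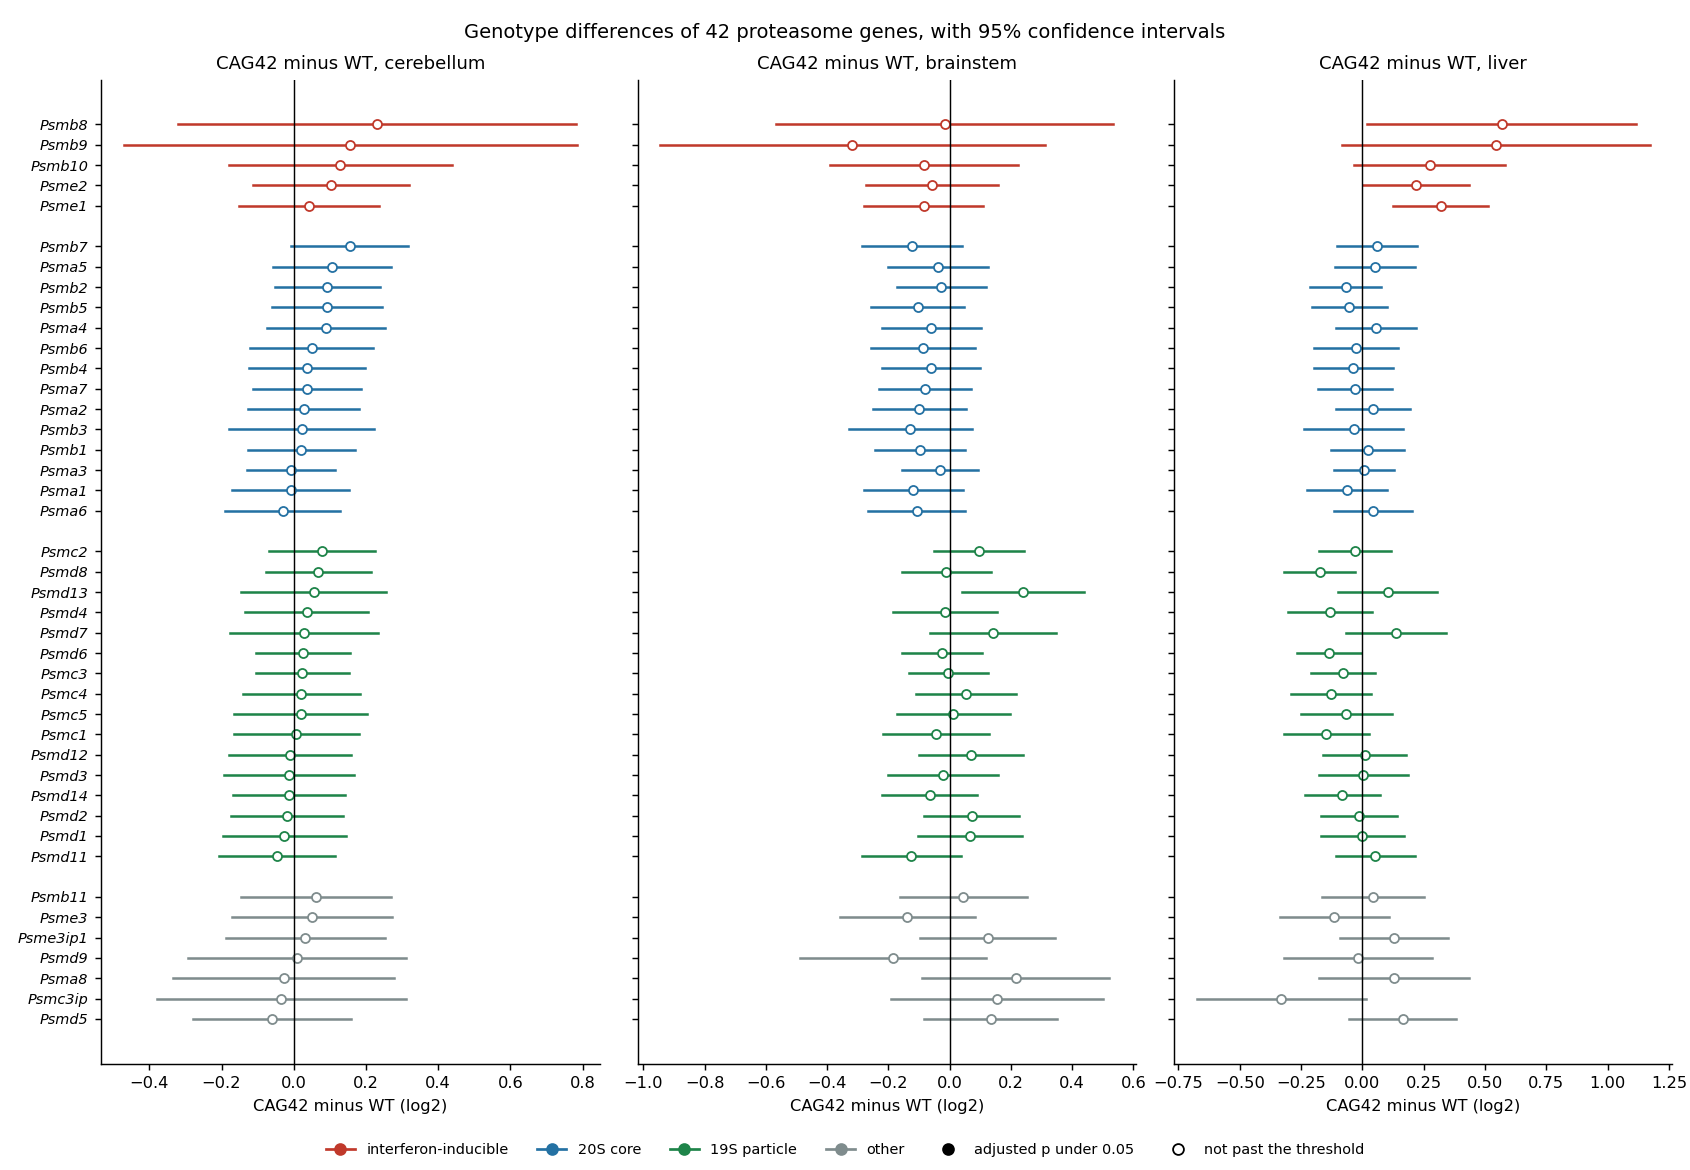
CAG42 minus WT differences of the 42 genes (log2) in cerebellum, brainstem and liver. Points are fitted differences, lines are 95% confidence intervals, and all points are open because no adjusted p was under 0.05. The widest intervals belong to the interferon-inducible genes Psmb8 and Psmb9.

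In liver the 5 interferon-inducible genes all had differences above 0 (0.22 to 0.57, median 0.32) and none was called. Psme1 gave 10.54, 10.59, 10.67 and 10.81 in CAG42 livers, against 10.20, 10.46, 10.10 and 10.59 in WT livers. The groups overlapped by 1 WT array, and the difference of 0.32 had a CI of 0.13 to 0.51 and an adjusted p of 0.239. Psmb8 gave 8.30, 8.57, 8.89 and 9.29 in CAG42 livers, against 8.18, 8.58, 7.05 and 8.97 in WT livers (0.57, CI 0.02 to 1.12, adjusted p = 0.565). Psmb9 gave 7.82, 8.08, 8.42 and 8.71 in CAG42 livers, against 7.82, 8.10, 6.47 and 8.47 in WT livers (0.54, CI −0.08 to 1.17, adjusted p = 0.653). Outside WT replicate 3 the genotypes covered nearly the same range in both genes. Psme2 gave 9.94, 10.04, 10.19 and 10.26 in CAG42 livers, against 9.88, 10.05, 9.58 and 10.03 in WT livers (0.22, adjusted p = 0.571). Psmb10 gave 9.30, 9.36, 9.53 and 9.91 in CAG42 livers, against 9.42, 9.41, 8.59 and 9.57 in WT livers (0.27, adjusted p = 0.640).

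Without WT liver replicate 3 the differences were 0.24 for Psme1, 0.19 for Psmb8, 0.13 for Psmb9, 0.12 for Psme2 and 0.06 for Psmb10 (median 0.13). This array was the lowest WT liver in all 5 genes, so leaving it out had to lower each value. On this array the mean of the 5 genes was 8.36, against 9.18 to 9.79 in CAG42 livers and 9.10 to 9.52 in the other WT livers. It was also the lowest liver array in the mean of 13 interferon-gamma response genes (6.54, against 7.12 to 7.92), of 12 type I interferon response genes (5.16, against 5.95 to 7.33), of 6 common leukocyte markers (6.18, against 6.80 to 8.07) and of 9 genes of MHC class I antigen processing (8.21, against 8.60 to 9.02). The 7 Kupffer cell markers averaged 7.35 on it, within the range of the other liver arrays, and the 30 genes of the core and particle 9.66, within their range of 9.57 to 9.72. The part of these values in the proteasome result was not tested.

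**Figure D5:**
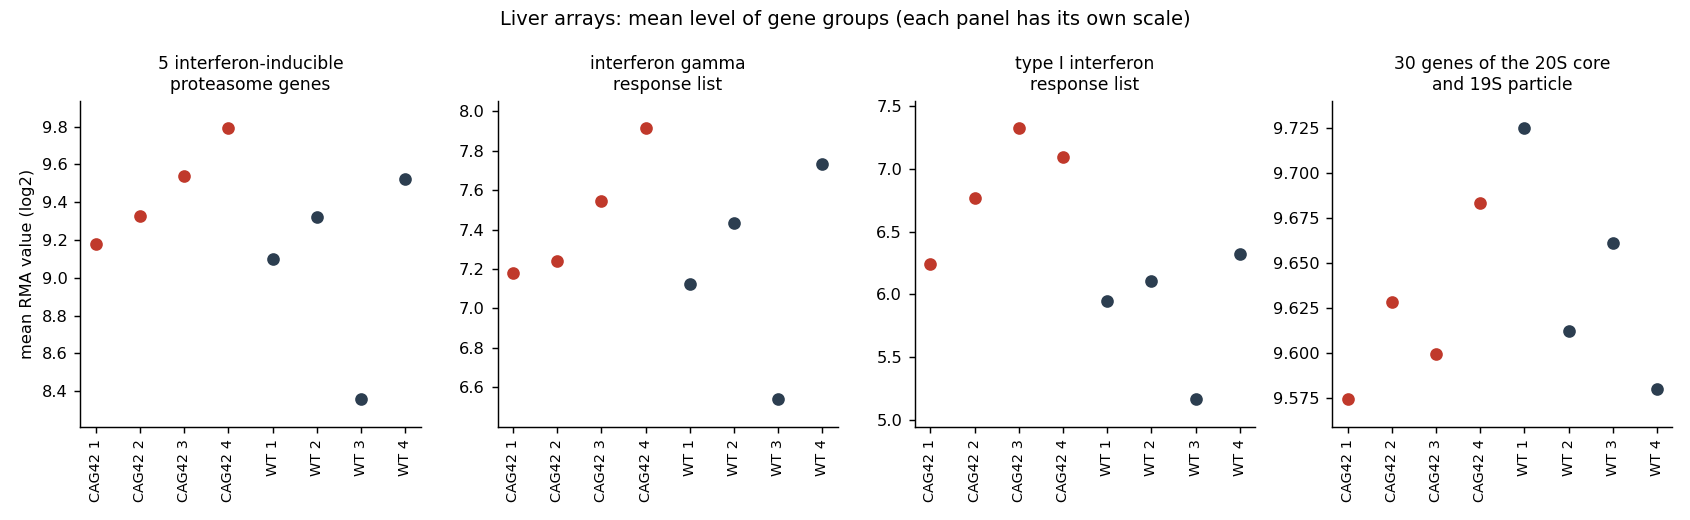
Mean RMA value (log2) on each liver array of the 5 interferon-inducible proteasome genes, the interferon-gamma response list, the type I interferon response list and the 30 genes of the 20S core and 19S particle, each panel on its own scale. Points are single arrays, CAG42 in red to the left and WT in dark blue to the right. WT replicate 3 is the lowest array in the first 3 panels, at 8.36 in the leftmost, and lies within the others in the fourth.

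The constitutive counterparts differed little between genotypes in liver. Psmb5 gave 9.65, 9.88, 9.84 and 9.87 in CAG42 livers, against 9.95, 9.83, 9.93 and 9.75 in WT livers (−0.05). Psmb6 gave 10.19, 10.34, 10.23 and 10.27 in CAG42 livers, against 10.28, 10.31, 10.37 and 10.18 in WT livers (−0.03). Psmb7 gave 9.06, 9.33, 9.19 and 9.15 in CAG42 livers, against 9.12, 9.17, 9.13 and 9.07 in WT livers (0.06). All 3 overlapped. Psme3 gave 7.27, 7.50, 7.30 and 7.19 in CAG42 livers, against 7.60, 7.38, 7.49 and 7.24 in WT livers (−0.11). The immunosubunit minus its counterpart gave 0.57 for Psmb9 (exact p = 0.371), 0.21 for Psmb10 (exact p = 0.514) and 0.62 for Psmb8 (exact p = 0.286) as CAG42 minus WT in liver, by two-sided exact permutation tests of 4 against 4. In cerebellum and brainstem the 6 values lay between −0.23 and 0.14 (exact p of 0.2 to 0.657), and all 9 adjusted p were 0.657.

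Among the other members in liver, Psmd8, a lid subunit, gave 9.90, 9.94, 9.77 and 9.91 in CAG42 livers, against 10.09, 10.05, 10.21 and 9.87 in WT livers (−0.17, adjusted p = 0.472). Psmd6, a lid subunit as well, was the member whose groups did not overlap, with 9.78, 9.78, 9.80 and 9.83 in CAG42 livers, against 9.99, 9.92, 9.99 and 9.85 in WT livers (−0.14, adjusted p = 0.558), while its second probe set gave 0.15. Leaving out WT liver replicate 1 made 1 call, a second, dimmer probe set of Psmd9 at 0.38 with an adjusted p of 0.0486. This probe set gave 4.43, 4.75, 4.54 and 4.26 in CAG42 livers, against 5.44, 4.22, 4.13 and 3.98 in WT livers, so the excluded array was the highest of all 8, and with all arrays its value was 0.05. Psmd9 lies 30 protein-coding genes from Atxn2 on chromosome 5.

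In brainstem the members of lowest p belonged to the 19S particle. Psmd13, a lid subunit, gave 9.18, 9.17, 9.20 and 9.18 in CAG42 brainstems, against 9.07, 8.87, 8.70 and 9.12 in WT brainstems. The groups did not overlap, and the WT arrays spread more (0.24, CI 0.04 to 0.44). Psmd11, also of the lid, gave 9.13, 9.15, 9.15 and 9.18 in CAG42 brainstems, against 9.11, 8.88, 8.79 and 9.12 in WT brainstems by its second brightest probe set (0.18), which did not overlap either. Its brightest probe set gave 9.62, 9.67, 9.68 and 9.64 in CAG42 brainstems, against 9.65, 9.90, 9.88 and 9.67 in WT brainstems (−0.12), and another, dim, gave 0.33. The low WT arrays of the second brightest were thus the high WT arrays of the brightest. A second probe set of Psmd7 gave 6.28, 6.51, 6.62 and 6.53 in CAG42 brainstems, against 6.08, 5.97, 6.34 and 6.51 in WT brainstems (0.26). All 4 values, of Psmd13, Psmd11 and Psmd7, had an adjusted p = 1.00.

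The interferon-inducible genes had 5 of 5 differences below 0 in brainstem, from −0.32 for Psmb9 to −0.02 for Psmb8, with a median of −0.08. Psmb9 gave 4.89, 5.14, 5.25 and 5.10 in CAG42 brainstems, against 5.17, 6.23, 4.89 and 5.35 in WT brainstems, and without WT replicate 2 its value was −0.05. Psmb8 gave 6.44, 6.38, 6.64 and 6.54 in CAG42 brainstems, against 6.33, 6.96, 6.29 and 6.49 in WT brainstems, and without that array its value was 0.13. WT replicate 2 was the highest brainstem array in all 5 genes (mean 8.21, against 7.71 to 7.82 in CAG42 brainstems and 7.69 to 7.81 in the other WT brainstems). Psmb10 gave 9.23, 9.20, 9.22 and 9.21 in CAG42 brainstems, against 9.16, 9.43, 9.37 and 9.24 in WT brainstems. Psme1 gave 9.25, 9.28, 9.32 and 9.19 in CAG42 brainstems, against 9.30, 9.52, 9.33 and 9.23 in WT brainstems. Psme2 gave 8.74, 8.70, 8.67 and 8.65 in CAG42 brainstems, against 8.49, 8.90, 8.88 and 8.72 in WT brainstems. The genotypes overlapped in all of them. All 14 genes of the 20S core had values below 0 in brainstem (median −0.09, against −0.00518 over all genes), none called. Their mean was 10.55, 10.53, 10.56 and 10.43 in CAG42 brainstems, against 10.51, 10.67, 10.70 and 10.52 in WT brainstems. Only WT replicates 2 and 3 lay above the CAG42 arrays, and the genes share these arrays, so the count of 14 is not of independent values.

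In cerebellum the differences of the interferon-inducible genes were small and above 0 in 5 of 5 (0.04 to 0.23, median 0.13). Psmb8 gave 5.62, 6.06, 5.72 and 5.94 in CAG42 cerebella, against 5.54, 5.65, 5.53 and 5.70 in WT cerebella (0.23). Psmb10 gave 7.77, 7.86, 7.83 and 7.79 in CAG42 cerebella, against 7.66, 7.73, 7.66 and 7.69 in WT cerebella (0.13), and its groups did not overlap. The others without overlap, named after their values were seen, were Psmb2 and Psmb5 above WT and 1 probe set of Psma1 below. Psmb5 gave 10.17, 10.24, 10.14 and 10.24 in CAG42 cerebella, against 10.09, 10.06, 10.13 and 10.13 in WT cerebella. Psmb9 gave 4.17, 4.63, 4.48 and 4.52 in CAG42 cerebella, against 4.22, 4.18, 4.22 and 4.55 in WT cerebella (0.16), and its other probe sets −0.10 and −0.05. The members of lowest p were a dim probe set of Psma1, of the alpha ring, at −0.18, Psmb7 at 0.15, a dim probe set of Psmd11 at 0.16 and another dim one of Psma1 at −0.21, each with an adjusted p = 1.00. Psmb7 gave 9.54, 9.65, 9.41 and 9.57 in CAG42 cerebella, against 9.43, 9.31, 9.38 and 9.44 in WT cerebella.

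The difference of the genotype effect between tissues was tested in the same model. Between liver and cerebellum 0 members and 0.00888% of all probe sets were called, and between liver and brainstem 0 members and 0.00888%. At an unadjusted p under 0.05 there were 3 members, against 3.98% of all probe sets, for liver minus cerebellum and 2, against 4.69%, for liver minus brainstem. Psme1 was among both, at 0.28 (adjusted p = 1.00) and 0.40 (adjusted p = 0.953). The others were Psmd8 at −0.24 and a probe set of Psmd4 at −0.24 for liver minus cerebellum, and the second brightest probe set of Psmd11 at −0.30 for liver minus brainstem. Psmb9 had 0.86 (adjusted p = 1.00) for liver minus brainstem, and without WT liver replicate 3 its value was 0.45.

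The genes that respond to interferon or work with the proteasome were counted between genotypes too. In liver 3 of 12 type I interferon response genes were called higher in CAG42 mice, where 0.147% of all probe sets were called in either direction. The median of the list was 0.78, against 0.00928 over all genes. The lists were chosen with earlier results of these data known, so these counts are no independent evidence. Ifi27 averaged 10.64 ± 0.67 in CAG42 livers and 8.96 ± 0.58 in WT livers (SD, n = 4 each; 1.68, adjusted p = 0.00412). The paper lists Ifi27l1 as raised in liver on its arrays, but its qPCR on other animals did not reproduce this. Whether both symbols name the same gene was not checked. Usp18, which removes the ubiquitin-like protein ISG15, averaged 7.33 ± 0.82 in CAG42 livers and 5.05 ± 0.86 in WT livers (2.28, adjusted p = 0.0139). Irf7, which switches on type I interferon genes, averaged 7.92 ± 0.92 in CAG42 livers and 6.05 ± 0.94 in WT livers (1.87, adjusted p = 0.0410), with overlapping groups. The count was 2 without WT replicate 3, where Ifi27 and Usp18 were called and the list's median was 0.48. Over the 8 arrays left out in turn it lay between 1 (without CAG42 replicate 3) and 7 (without WT replicate 1, where 1 gene was also called lower). Of 13 interferon-gamma response genes 0 were called (median 0.20), with Irgm1 at 0.68 (adjusted p = 0.208). Over the 8 arrays left out in turn this median ran from −0.05 (without WT replicate 3) to 0.39 (without WT replicate 4). Irgm1 was called higher without WT replicate 1. Of 9 genes of MHC class I antigen processing 0 were called (median 0.13), with Tapbp at 0.35 (adjusted p = 0.331). Of the Kupffer cell markers 1 of 7 was called, beside the same 0.147% of all probe sets. It was Cd163, a scavenger receptor, which fell by 1.20, to 5.16 ± 0.52 in CAG42 livers, against 6.36 ± 0.30 in WT livers (adjusted p = 0.00295). No chaperone, shuttle or regulator of proteasome transcription was called between genotypes in any tissue, and no interferon or MHC class I gene of the lists in brainstem or cerebellum.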

How the data were processed

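Transcript levels were measured on 24 arrays. Scans were normalized by the authors using RMA. It subtracts background, equalises the distributions of arrays and combines the probes of a set, which compresses differences at low levels. The deposited values are on the log2 scale, 1 per probe set, and R 2.7.0 stands in the submitters' notes. No scan date, detection call or background signal was analysed, and batches were therefore not tested. Precision is limited by having 4 mice per group.

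Groups came from the labels. Probe sets were named from the platform annotation, with symbols updated through the gene table of GRCm38.p6, and 104 control probe sets were left out. Each combination of tissue and genotype had its own mean in a linear model of all 24 arrays and 45037 probe sets, fitted in limma 3.58.1 (R 4.3.3), with empirical Bayes moderation and Benjamini-Hochberg adjustment within each comparison (threshold 0.05). It was tested on simulated data first. Differences per array between immunosubunits and counterparts were compared by exact permutation tests. Plots were made in matplotlib 3.10.9 (Python 3.11.15).

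The members and gene lists were chosen with earlier results of these data known. Named with values were the 5 interferon-inducible genes and their counterparts, in each genotype comparison the called members or those of lowest p up to 4, in each tissue comparison the 4 largest differences in each direction, Psma8, Psmb11, genes whose probe sets disagreed, and up to 3 genes of lowest p per list. Other names were chosen after their values were seen. Deviations from the group means of cerebellum and brainstem arrays with the same genotype and number correlated at r of 0.22 to 0.38 in 8 of 8 pairs. These arrays thus deviate together, but the sources used here do not say that a number marks 1 mouse across tissues. Alternatives were other scalings, blocks, array weights, a filter on dim probe sets, 1 F statistic, second probe sets and leaving out each array.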

Additional observations from a re-analysis of the deposited data

Results flagged for a closer look

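In 10 of 156 groups of 4 arrays checked, 6.41%, 1 array stood farther from the rest than Dixon's 95% critical value allows, and chance alone gives about 5%. Among the interferon-inducible genes, Psmb10 was 8.59 on WT liver replicate 3 (9.41 to 9.57 on the others), and Psmb9 was 4.55 on WT cerebellum replicate 4 (4.18 to 4.22). In the 20S core, Psmb6 was 10.46 on CAG42 brainstem replicate 4 (10.59 to 10.61), and a dim probe set of Psma1 was 3.62 on CAG42 liver replicate 2 (3.79 to 3.80).

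In the 19S particle, Psmd6 was 10.44 on CAG42 cerebellum replicate 2 (10.29 to 10.32). A dim probe set of Psmd11 was 3.03 on CAG42 cerebellum replicate 1 (3.41 to 3.48) and 3.33 on WT liver replicate 1 (2.42 to 2.58). Among the others, Psme3 was 7.89 on CAG42 cerebellum replicate 2 (7.56 to 7.58), Psmd9 was 6.88 on CAG42 brainstem replicate 4 (7.28 to 7.33) and Psmc3ip was 5.57 on WT liver replicate 3 (4.65 to 4.78).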

How the results depend on the processing

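Counts of called member probe sets, both directions together, stayed within 1.5 times of the main count under every alternative run, apart from the 1 call in liver between CAG42 and WT mice without WT liver replicate 1 (0 to 1 over the 8 arrays left out). Split by direction, counts over the 42 genes moved further with the scaling. Called higher and lower in liver than in cerebellum were 10 and 20 as deposited, 19 and 11 after centring and 20 and 7 after quantile normalization, and in liver than in brainstem 7 and 29, 14 and 19, and 17 and 17. The differences of single members turned sign as follows. Between genotypes, other probe sets gave -0.103 and -0.0452 for Psmb9 and -0.0268 and -0.0463 for Psmd11 in cerebellum, -0.0167 and -0.125 for Psmd11 and -0.0462 for Psmd7 in brainstem, and -0.0687 for Psmb8 and 0.148 for Psmd6 in liver, where the mean of both probe sets of Psmd6 gave 0.0061. Between tissues, a second probe set gave 0.422 (liver minus cerebellum) and 0.279 (liver minus brainstem) for Psmd2 and 0.0186 for Psmb8 (cerebellum minus brainstem). Liver minus brainstem of Psmb10 became 0.309 in CAG42 mice, 0.359 after centring and 0.678 after quantile normalization, and cerebellum minus brainstem of Psma8 became -0.169 in CAG42 mice. The difference of the genotype effect of Psmb8 between liver and cerebellum was -0.0755 by its second probe set. With the mean of all probe sets, Psmb9 minus Psmb6 became -0.0474 between genotypes in cerebellum and Psmb8 minus Psmb5 became 0.217 for cerebellum minus brainstem. The cause was not tested in any of these.

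With each array left out in turn, the genotype difference of Psmb8 in brainstem ran from -0.0907 to 0.131, liver minus brainstem of Psmb10 from -0.157 to 0.169 and cerebellum minus brainstem of Psma8 from -0.0495 to 0.174. The genotype effect in liver minus that in cerebellum ran from -0.0435 to 0.595 for Psmb8, from -0.0282 to 0.640 for Psmb9 and from -0.0740 to 0.251 for Psmb10, lowest without WT liver replicate 3 in each case. Between genotypes, Psmb9 minus Psmb6 ran from -0.449 to 0.00643 in brainstem, Psmb10 minus Psmb7 from -0.0763 to 0.0156 in cerebellum, from -0.00494 to 0.0719 in brainstem and from -0.00872 to 0.340 in liver, and Psmb8 minus Psmb5 from -0.0343 to 0.227 in brainstem.

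With the number as a replicate block within each tissue, 0 members were called between genotypes in any tissue. CAG42 and WT arrays of the same number correlated at r of -0.299 to 0.214, over 0.1 in 2 of 12 pairs, so they share only a number. With genotype and number as a replicate block across tissues, 43, 52 and 43 members were called for liver minus cerebellum, liver minus brainstem and cerebellum minus brainstem, against 42, 53 and 44 without it, and genes called lower were 28 for liver minus brainstem (29 without it) and 31 for cerebellum minus brainstem (33 without it). Liver correlated best with its own number in 8 of 8 pairs with brainstem (r of 0.0417 to 0.161) and in 7 of 8 with cerebellum. A filter on dim probe sets kept 53 of 64 members and 41 of 42 genes.

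Low levels are not separable from background here, which touches Psmb9 in cerebellum, Psma8 in brain, Psmb11 and many second probe sets. The values are transcript levels and say nothing of assembled proteasomes. Counts of list genes and of gene classes without single liver arrays were added after seeing the data.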
